A study of Caenorhabditis elegans with 4 samples.

Results

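The 26S proteasome is the protease that degrades most ubiquitin-tagged proteins in eukaryotic cells. Its 20S core is a barrel of alpha rings around beta rings, and certain beta subunits carry the proteolytic sites inside it. A 19S cap docks on the core. Its base holds a ring of ATPases that unfold substrates and open the core, and its lid and scaffold subunits recognise ubiquitin chains and remove them. In early *C. elegans* embryos, the proteasome removes maternal proteins at the transition from oocyte to embryo and after fertilization.

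The transcripts described here are those of the genes that the deposited table names *pas* (20S alpha), *pbs* (20S beta), *rpt* (19S base ATPases) and *rpn* (19S non-ATPases), followed by a number. This rule matched 32 of the 42048 genes in the table, 7 *pas*, 7 *pbs*, 6 *rpt* and 12 *rpn*. The rule does not use expression. It leaves out the ubiquitin receptor gene *rpn-13*, which the table lists under its sequence name C56G2.7, and *dss-1*, which encodes a small lid subunit. Of the 32 genes, 10 lie on chromosome I, 7 on II, 7 on III, 3 on IV and 5 on V of WBcel235, and 0 on X.

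RNA-seq compared wild-type embryos (from N2 worms on bacteria carrying the empty L4440 vector) with embryos of *meg-1(vr10)* worms grown on *meg-2* RNAi bacteria (*meg-1 meg-2*, also called the mutant below, although *meg-2* was depleted and not mutated). MEG-1 and MEG-2 are disordered proteins of germ plasm condensates, and the comparison asks how the maternal transcriptome depends on them. *vr10* is a partial deletion of *meg-1*, *meg-2* was depleted by feeding, and all worms of both groups ate RNAi bacteria from the L1 larval stage and were grown at 20°C. There were 2 libraries of each genotype, each from a separate culture of many pooled embryos, so a change in a few cells such as the germline founder cell cannot be seen apart from the rest of the embryo.

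Only genotype means are deposited, and the whole reads of each library were recovered from them (libraries A and B of each genotype, not matched to the replicates of the labels). The libraries had from 20662429 to 26017429 reads on genes. Levels are in fpm, reads divided by size factors and scaled to a common library size (robust fpm of DESeq2), and levels of different genes are compared only in fpm per kb of gene length. The targeted gene *meg-1* had 1933 and 2423 reads in wild type against 19 and 18 in the mutant, and *meg-2* had 515 and 677 against 141 and 172. Of 5 sperm and 4 yolk protein transcripts, none passed the limit for testing, with at most 0.354 and 1.34 fpm in all in any library.

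In all 4 libraries the subunit transcripts were abundant and close to each other in level, apart from *rpn-6.2*. The other 31 had between 1178 and 10065 reads in a library. Their mean levels over the 4 libraries ran from 79.1 fpm per kb for *pas-4* to 211 fpm per kb for *pbs-1*, a 2.67-fold range. These levels lay between the 82.8th and the 95.8th percentile of the tested protein-coding genes. The SD of the log2 level per kb over the 31 subunits was 0.38 in each wild-type library and 0.44 in each *meg-1 meg-2* library. The order of the subunits was much alike in both genotypes (Spearman's rho 0.948 across 31 genes, a description, since all genes come from the same libraries).

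**Figure D1:**
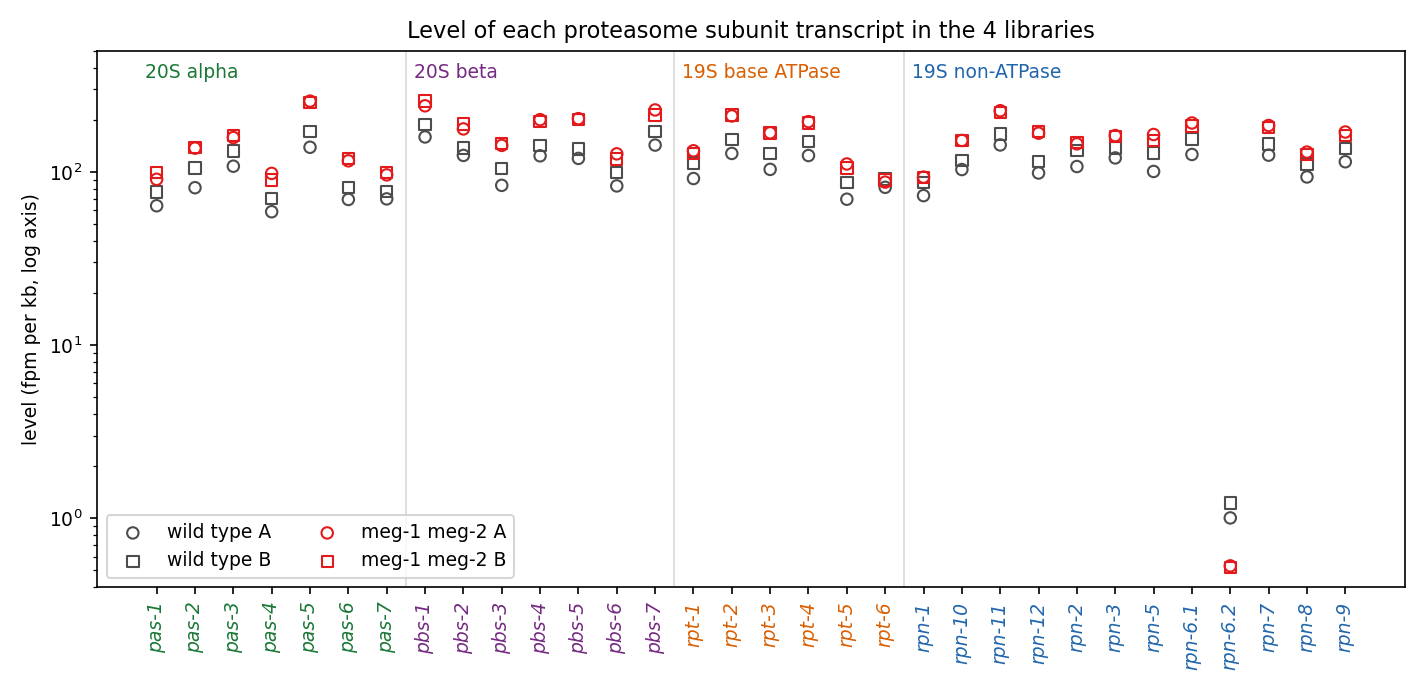
Level of each of the 32 subunit transcripts in fpm per kb (log axis) in the 4 libraries, by class; circles are libraries A and squares libraries B, grey for wild type and red for *meg-1 meg-2*. Apart from *rpn-6.2*, between 0.517 and 1.23 fpm per kb, every subunit sits between 58.8 and 257 fpm per kb, and the red symbols lie above the grey ones for all of these except *rpt-6*.

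The proteasome subunits were higher in mutant embryos as a group. Summed over the 32 genes, they took 3541 and 4226 fpm in the wild-type libraries, against 5324 and 5273 fpm in the mutant libraries, a 1.36-fold higher mean (3884±484 against 5299±35.8 fpm, SD, *n*=2). Put as a share of the reads on genes, this was 0.374% and 0.424% in wild type against 0.527% and 0.513% in the mutant. Both mutant libraries were above both wild-type libraries for 30 of the 31 tested subunits, where this held for 34.2% of all 13060 genes tested, and the reverse order was seen for 0 of 31, against 30.4% of all genes. In bulk embryo RNA, more cells with these transcripts and more of them per cell cannot be told apart.

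Genes were tested with limma on log2(fpm per kb + 2.00), with Benjamini-Hochberg adjustment over all 13060 genes, and changes below are on that scale. A gene was called at a change of at least 1.5-fold with an unadjusted *P*-value below 0.05. All 31 tested subunits had a log2 fold change above 0, against 49.7% of all genes. Their median was 0.47 and the range was from 0.04 to 0.71, while the median of all genes tested was −0.003. By the rule for calls, 6 of the 31 subunits rose and 0 fell, where 4.23% of all genes tested rose and 3.94% fell. Most subunits thus changed by less than 1.5-fold. With an unadjusted *P*-value below 0.05 and no minimum fold change, 28 of 31 were higher, against 17.6% of all genes. After adjustment, 6 of 31 remained with no minimum fold change, against 2.57% of all genes, and 5 of 31 at 1.5-fold or more, against 2.34%. Count models on the recovered reads gave more adjusted calls. With no minimum fold change, 26 of 31 subunits were higher in edgeR's quasi-likelihood test, against 9.19% of all genes, and 27 of 31 in DESeq2, against 11.2%. At 1.5-fold or more and an unadjusted *P*-value below 0.05, edgeR called 3 of 31 (3.77% of all genes) and DESeq2 6 of 31 (4.8% of all genes). With 2 libraries against 2, an exact two-sided permutation test of 1 gene cannot give a *P*-value below 0.333, so all of these rest on a spread shared across genes.

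**Figure D2:**
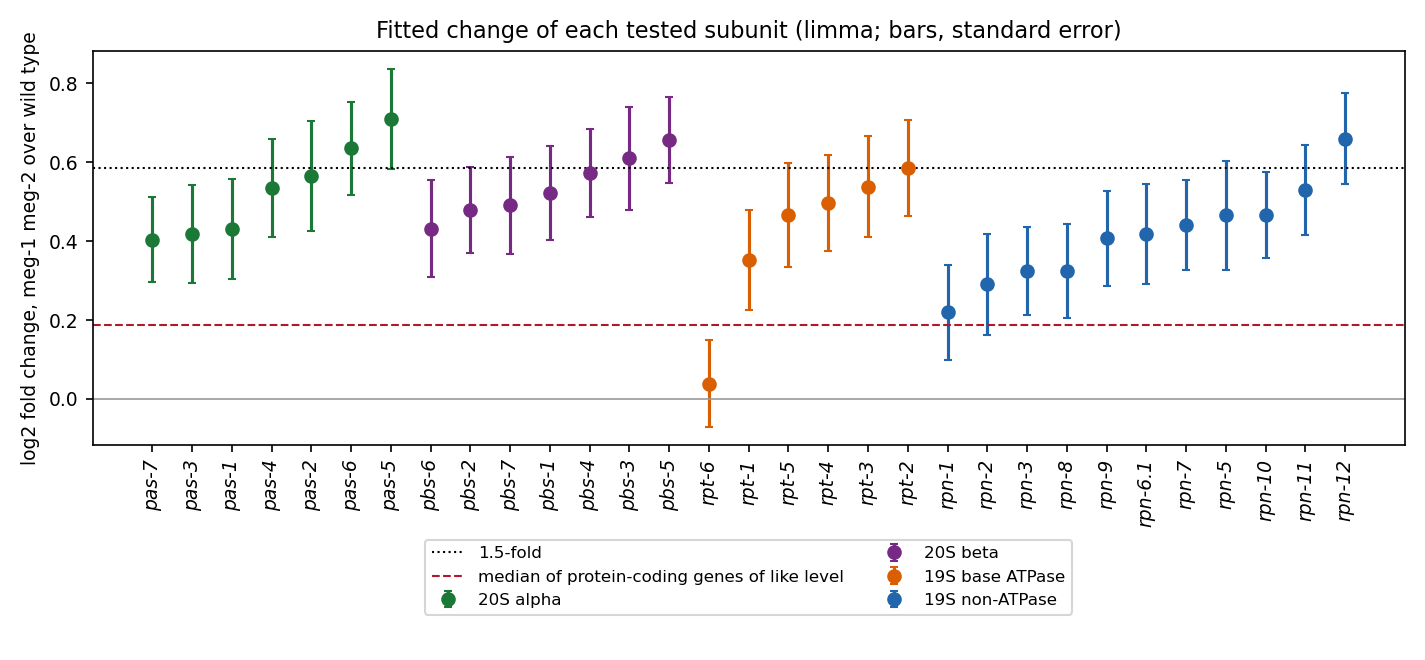
Log2 fold change (*meg-1 meg-2* against wild type) of the 31 tested subunits (from limma, bars are standard errors), coloured by class and ordered within it; the dotted line marks 1.5-fold and the dashed line, at 0.19, the median of 1404 protein-coding genes in the same level range. All points except *rpt-6* lie above the dashed line.

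Abundant transcripts were also higher in general, so the subunits were set beside genes of like level. The 1404 other protein-coding genes whose mean level lay within the range of the subunits had a log2 fold change of 0.19 in the median, with 73.1% above 0. Of these 1404 genes, 5.48% were called higher and 34.2% were higher with an unadjusted *P*-value below 0.05. Both mutant libraries were above both wild-type libraries for 59.5% of them. For the 946 of them whose length also lay within the range of the subunits, the median was 0.18. The median of the subunits, 0.47, was 0.34 above the value over the more abundant 6530 of the tested genes (0.13).

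The 20S alpha subunits form the outer rings of the core, which gate the entry of substrates. All 7 had an unadjusted *P*-value below 0.05, the median of their log2 fold changes was 0.53, and 2 were called. Of all genes tested, 17.6% were higher at this *P*-value and 4.23% were called higher. Of the 1404 genes of like level, these shares were 34.2% and 5.48%. *pas-5*, the ortholog of human PSMA5, was the most abundant of the alpha class per length, and of all subunits it had the largest rise. It lies on chromosome I from 10566350 to 10567300, on the plus strand. Its level was 104 and 128 fpm in the wild-type libraries, against 191 and 187 fpm in the mutant libraries. The groups were well apart, and the means differed 1.63-fold (log2 fold change 0.71, standard error 0.13, limma adjusted *P*=0.0363). *pas-6* (human PSMA1) rose from 54.2 and 63.5 fpm to 90.6 and 93.3 fpm, or 1.56-fold (limma adjusted *P*=0.0379). *pas-4* (human PSMA7) had the lowest level per length of the class, with 44.8 and 53.2 fpm in wild type against 74.6 and 68.3 fpm in the mutant (log2 fold change 0.53, limma adjusted *P*=0.0563). *pas-7* (human PSMA3) differed the least of the class, with 52.5 and 57.8 fpm against 72.3 and 74.5 fpm (log2 fold change 0.40, limma adjusted *P*=0.0706). The remaining alpha genes were not called. *pas-1* had 47.2 and 56.6 fpm in wild type against 67.1 and 73.4 fpm (log2 fold change 0.43), *pas-2* had 56.3 and 73.2 fpm against 95.3 and 96.1 fpm (log2 fold change 0.56), and *pas-3* had 81.1 and 99.1 fpm against 119 and 122 fpm (log2 fold change 0.42).

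The 20S beta subunits form the inner rings. All 7 had an unadjusted *P*-value below 0.05, with a median log2 fold change of 0.52, and 2 were called. The shares for comparison were again 17.6% and 4.23% of all genes tested, and 34.2% and 5.48% of the genes of like level. *pbs-5* encodes the subunit with chymotrypsin-like activity. It was at 102 and 116 fpm in wild type against 173 and 171 fpm in the mutant, a 1.58-fold rise (log2 fold change 0.66, standard error 0.11, limma adjusted *P*=0.0323). *pbs-3*, a subunit without a proteolytic site, rose from 51.4 and 64.3 fpm to 87.4 and 89.4 fpm, or 1.53-fold, and was just short of the threshold after adjustment (limma adjusted *P*=0.0502). *pbs-1* and *pbs-2* encode the subunits with caspase-like and trypsin-like activity. *pbs-1* had the highest level per length of all subunits over the 4 libraries, with 114 and 135 fpm in wild type against 173 and 185 fpm in the mutant (log2 fold change 0.52, limma adjusted *P*=0.0546). *pbs-2* had 104 and 114 fpm against 148 and 157 fpm (log2 fold change 0.48, limma adjusted *P*=0.0544). Of these 3 genes of proteolytic subunits, *pbs-5* was called, and *pbs-1* and *pbs-2* were not. The lowest of the class in level and in change was *pbs-6*, another subunit without a proteolytic site, with 64.4 and 76.7 fpm against 98.7 and 92.2 fpm (log2 fold change 0.43, limma adjusted *P*=0.0774). *pbs-4* had 75.3 and 86.4 fpm against 122 and 119 fpm, and at a log2 fold change of 0.57 it missed the 1.5-fold limit, with a limma adjusted *P* of 0.0419. *pbs-7* had 101 and 121 fpm against 162 and 151 fpm (log2 fold change 0.49). Neither encodes a proteolytic subunit.

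The 6 base ATPases form a ring of equal parts in the assembled cap, but their transcripts did not move by the same amount. *rpt-2* was the highest of the class and rose from 170 and 205 fpm to 280 and 283 fpm (log2 fold change 0.59, standard error 0.12, limma adjusted *P*=0.0476), which is just past the 1.5-fold limit. In yeast, Rpt2 is known to control opening of the core. The other members of the ring apart from *rpt-6* differed by less, each with an unadjusted *P*-value below 0.05 and none called. At this *P*-value, 17.6% of all genes tested and 34.2% of the genes of like level were higher. The shares called higher were 4.23% and 5.48%. *rpt-3* had 129 and 159 fpm against 209 and 209 fpm (log2 fold change 0.54), and *rpt-4* had 152 and 182 fpm against 238 and 233 fpm (log2 fold change 0.50). *rpt-5* had 89.8 and 112 fpm against 144 and 136 fpm (log2 fold change 0.47), and *rpt-1* had 120 and 147 fpm against 173 and 167 fpm (log2 fold change 0.35).

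*rpt-6* was the exception among all 31 subunits. It lies on chromosome III from 12370456 to 12372607, on the plus strand. It had 2676 and 2962 reads in wild type against 2465 and 2251 reads in the mutant, which is 102 and 114 fpm against 109 and 112 fpm. The mutant libraries lay between the wild-type libraries, and limma gave a log2 fold change of 0.04 with a standard error of 0.11 (adjusted *P*=0.829). Its direction depended on scaling, with −0.11 after quantile normalization. Relative to the median of the other 5 base ATPases, the level of *rpt-6* per kb was 0.788 and 0.710 in the wild-type libraries, against 0.519 and 0.534 in the mutant libraries. In wild type its mean level per kb (86.1) was above that of *rpt-5* (78.0), and in the mutant it was the lowest of the class (88.4 against 108 for *rpt-5*). *rpt-6* shares 26 exonic bases with *glrx-5* on the opposite strand, which had from 400 to 553 reads in a library. The strand setting of the read counting is not given in the sources used here.

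The *rpn* genes encode the scaffold, lid and ubiquitin receptor subunits of the cap. Of the 11 tested, 9 had an unadjusted *P*-value below 0.05, and both mutant libraries were above both wild-type libraries for all 11, with a median log2 fold change of 0.42. Over all genes tested these shares were 17.6% and 34.2%, and over the 1404 genes of like level 34.2% and 59.5%. The shares called higher were 4.23% of all genes tested and 5.48% of the genes of like level. *rpn-12*, a small lid subunit known in yeast to complete lid assembly, was the 1 *rpn* gene called. It rose from 74.1 and 86.4 fpm to 126 and 129 fpm, or 1.59-fold (log2 fold change 0.66, standard error 0.12, limma adjusted *P*=0.0343). *rpn-11*, the deubiquitinase of the lid, was the most abundant per length, with 134 and 155 fpm in wild type against 212 and 206 fpm in the mutant (log2 fold change 0.53, limma adjusted *P*=0.0502). *rpn-10*, a ubiquitin receptor known in *C. elegans* for its part in sex determination of the germ line, had 107 and 121 fpm against 158 and 158 fpm (log2 fold change 0.47, limma adjusted *P*=0.0564). *rpn-13*, the receptor that the naming rule misses, had 103 and 130 fpm against 148 and 155 fpm (log2 fold change 0.38, limma adjusted *P*=0.116).

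Another 5 lid subunits follow, and *rpn-6.1*, also of the lid, is described further below. *rpn-8*, which pairs with the deubiquitinase RPN-11, had 102 and 120 fpm against 141.6 and 137 fpm, and its log2 fold change of 0.33 was below that of *rpn-11*. *rpn-3* had 182 and 207 fpm against 245 and 243 fpm (log2 fold change 0.32), and *rpn-5* had 148 and 189 fpm against 242 and 223 fpm (log2 fold change 0.47). *rpn-7* had 154 and 178 fpm against 228 and 223 fpm (log2 fold change 0.44), and *rpn-9* had 133 and 158 fpm against 198 and 189 fpm (log2 fold change 0.41). All 5 were higher with an unadjusted *P*-value below 0.05 (17.6% of all genes, 34.2% of genes of like level). None was called (4.23% of all genes and 5.48% of genes of like level were called higher). *rpn-7* shares 394 exonic bases with *nemt-1* and *rpn-9* shares 140 with T06D8.12, both on the opposite strand, so their reads are less certain. Exons of *rpt-4*, *pbs-4*, *pbs-7*, *rpn-10*, *rpt-2*, *pbs-3*, *rpn-11* and *pas-7* share from 4 to 103 bases with another gene, and those of the other called subunits share none.

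The largest scaffold subunits differed the least among the *rpn* genes. *rpn-1* had 215 and 255 fpm in wild type against 274 and 273 fpm in the mutant (log2 fold change 0.22, standard error 0.12, limma adjusted *P*=0.257). *rpn-2* had 311 and 386 fpm against 421 and 430 fpm (log2 fold change 0.29, limma adjusted *P*=0.179). Neither had an unadjusted *P*-value below 0.05, although both mutant libraries were above both wild-type libraries for each. These are also the longest genes, at 2946 and 2902 bp.

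RPN-6 comes from a pair of related genes. *rpn-6.1*, whose product in *C. elegans* is known to raise proteasome activity when overexpressed, had 4359 and 5317 reads in wild type against 5699 and 4851 reads in the mutant, which is 166 and 204 fpm against 252 and 241 fpm (log2 fold change 0.42, limma adjusted *P*=0.0890). *rpn-6.2* (chromosome III from 8999817 to 9001999, minus strand) had 33 and 40 reads in wild type against 15 and 13 reads in the mutant. It had 1.39±0.197 fpm against 0.655±0.0117 fpm (SD, *n*=2). Per length this is 1.11 and 0.524 fpm per kb, below the limit of 2.18 fpm per kb for testing. *rpn-6.2* was the 1 subunit whose mutant libraries both lay below the wild-type libraries. Without the limit, limma gave an unadjusted *P*-value of 0.0356 and an adjusted *P* of 0.280, and DESeq2 gave an unadjusted *P*-value of 0.0790 and no adjusted one, so a change was not shown at this depth. The level of *rpn-6.1* per kb was 125 and 126 times that of *rpn-6.2* in wild type against 361 and 355 times in the mutant. As the genes are paralogs, some *rpn-6.2* reads may belong to *rpn-6.1*.

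The summed transcripts of the core differed more than those of the cap. The alpha class was 1.47-fold and the beta class 1.45-fold higher in the mutant, the base ATPases 1.36-fold and the *rpn* genes 1.31-fold. The medians of the log2 fold changes were 0.53 over the 14 core genes and 0.44 over the 17 tested cap genes, and their ranges overlapped. The SD of the log2 fold change over the 31 subunits was 0.14, and the standard error of a single subunit was between 0.11 and 0.14. Differences between subunits were not tested, and these standard errors, which include the gap between the wild-type libraries that the subunits share, are not the errors of such differences.

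Core genes are shorter than cap genes, with median lengths of 750 and 1251 bp. Over the 31 subunits, the log2 fold change went down with log2 gene length (Pearson's r −0.598, Spearman's rho −0.536), and r was −0.480 over the 29 genes without *rpn-1* and *rpn-2*. This is across genes of the same libraries, which are not independent replicates. Shorter protein-coding genes were also higher in general, with a median log2 fold change of 0.08 for 2206 genes of 603 to 961 bp and −0.03 for 2202 genes of 2005 bp or more. After the trend with length was removed from each library, the median of the subunits was 0.42 and r with log2 length was −0.450. In that fit 2 subunits were called higher, as were 505 of all 13060 genes.

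**Figure D3:**
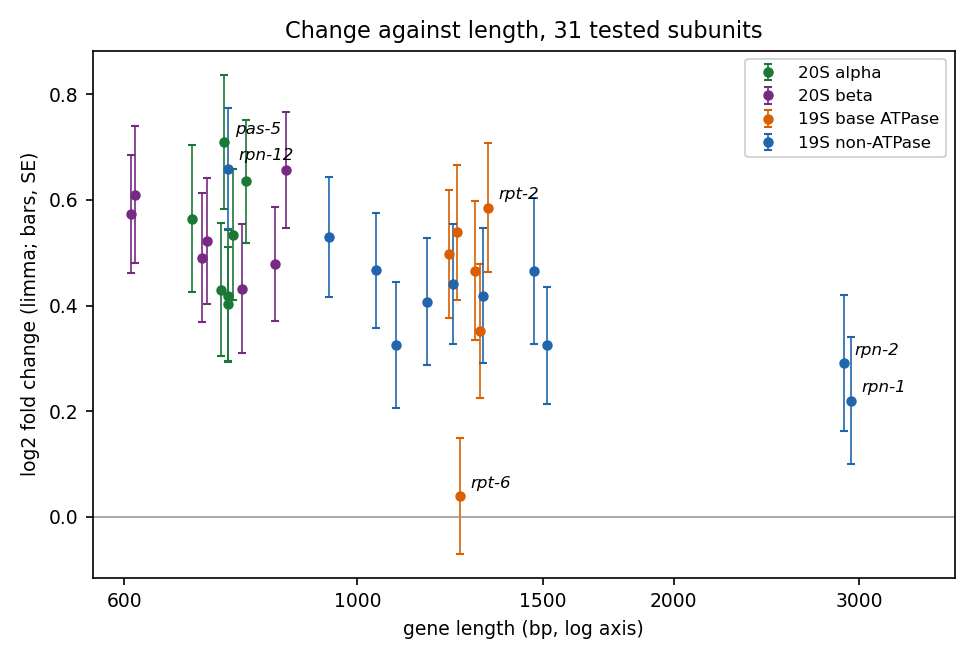
Log2 fold change (limma, bars are standard errors) against gene length in bp (log axis) for the 31 tested subunits, coloured by class. The short core genes are at the left, from 0.40 to 0.71, with *rpn-12* (0.66) among them. *rpt-2*, *rpt-3* and *rpt-4*, at 0.59, 0.54 and 0.50, are longer and lie above some core genes. *rpn-1* and *rpn-2*, the longest genes, are low, and *rpt-6* lies alone near 0.

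The size of the difference depended on the wild-type library. For all 31 subunits, wild-type library B was above wild-type library A, with a median log2 ratio of 0.25 and a range from 0.14 to 0.38. Abundant genes in general shared much of this gap. Its median was 0.19 over the 6530 more abundant genes and 0.21 over the 1404 protein-coding genes of like level. The mutant libraries had a median log2 ratio of −0.01, with 13 of 31 above 0. Against wild-type library A, the median log2 ratio of the subunits was 0.62 and 0.59 in the mutant libraries, and against wild-type library B it was 0.36 in both. *rpt-6* was the 1 subunit below wild-type library B in each *meg-1 meg-2* library. When wild-type library A was left out of the fit, the median was 0.36 and the largest log2 fold change of a subunit was 0.57. When wild-type library B was left out, these were 0.62 and 0.86. The median of all genes tested was −0.005 and 0.03 in these fits. Over the 6530 more abundant genes, the median log2 ratio was 0.22 and 0.23 against wild-type library A and 0.05 and 0.05 against wild-type library B.

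**Figure D4:**
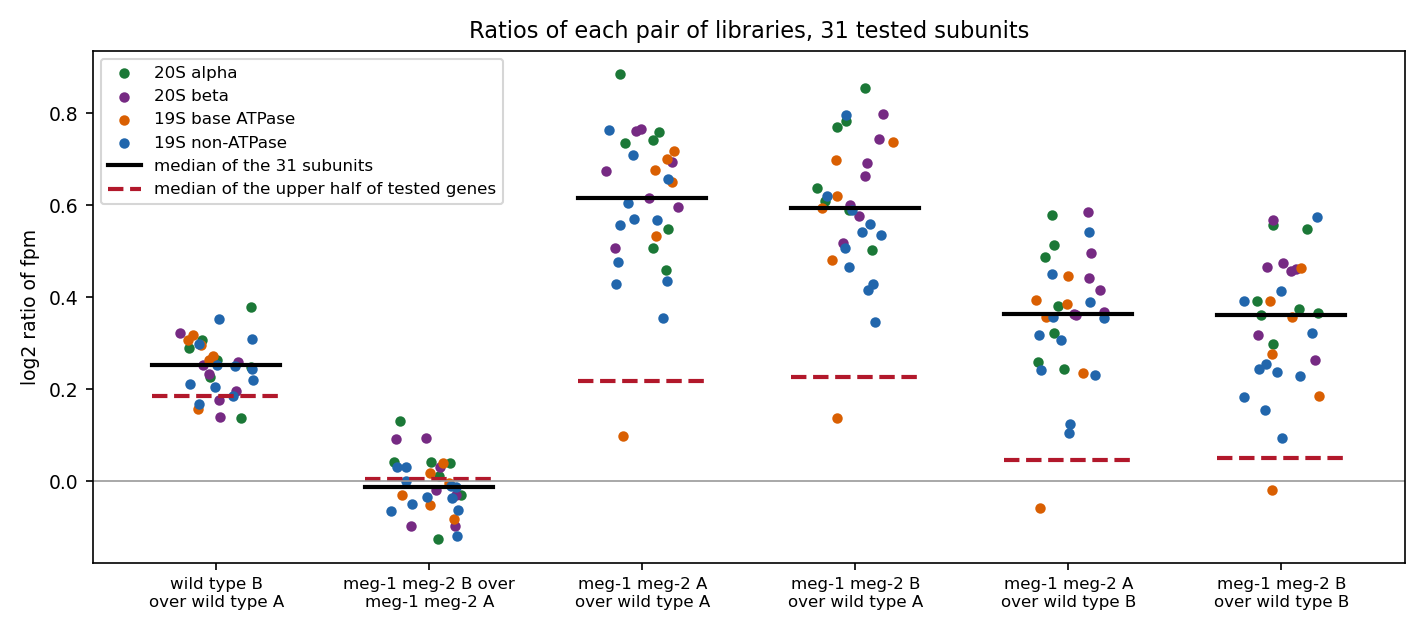
Log2 ratio of fpm in each pair of libraries for the 31 tested subunits, coloured by class; black bars are the median of the subunits and dashed bars the median over the 6530 more abundant of the tested genes. The wild-type libraries differ by 0.25 in the median, the *meg-1 meg-2* libraries by −0.01, and all 4 ratios between genotypes have medians of 0.36 or more.

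Transcript lists for early and late embryonic stages moved with these differences. The 7 oocyte and maternal transcripts (*pos-1* and others) summed to 722 and 918 fpm in wild type against 1192 and 1185 fpm in the mutant. Their median log2 fold change was 0.50, and *oma-2* and *spn-4* were called higher. Of 8 early zygotic transcripts, 6 were tested, with a median of 0.62 on the log2 scale. *end-1*, *end-3*, *tbx-37* and *pes-10* were called higher, as were 4.23% of all genes tested. Muscle structural transcripts went the other way. The 5 genes in the muscle list summed to 2600 and 1699 fpm in wild type against 1398 and 1426 fpm in the mutant. *unc-54*, *unc-15* and *lev-11* were called lower, as were 3.94% of all genes tested, and *myo-3* was at a log2 fold change of −0.29. *hlh-1*, the muscle transcription factor in the list, did not share this pattern, with 39.6 and 46.8 fpm in wild type against 43.3 and 46.8 fpm (log2 fold change 0.06), and it was lowest in wild-type library A. The 2 tested of 5 late epidermal transcripts, *dpy-7* and *sqt-3*, had log2 fold changes of −0.48 and −0.43. The summed proteasome transcripts thus put wild-type library A lowest and wild-type library B next, as the summed maternal and early zygotic transcripts did. Most of the early zygotic sum came from *pes-10*. In that list, *sdz-38* and the untested *med-1* and *med-2*, which had few reads, were instead lowest in wild-type library B. The summed muscle and late epidermal transcripts were highest in wild-type library A. The authors conclude that MEG-1 and MEG-2 help to turn over some maternal mRNAs, so maternal transcripts do not mark age alone. No label gives the age of the embryos in each collection, and the part of age in the higher proteasome transcripts was not tested.

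Genes that work with the proteasome were compared in lists. Of 8 genes for delivery factors, deubiquitinases and other associated proteins, all 8 had a log2 fold change above 0 and 6 had an unadjusted *P*-value below 0.05, but 0 were called, and the median was 0.38. Of all genes tested, 49.7% were above 0, 17.6% were higher at this *P*-value and 4.23% were called higher. Of the 1404 protein-coding genes in the level range of the subunits, these shares were 73.1%, 34.2% and 5.48%, with a median of 0.19. *usp-14*, a deubiquitinase that docks on the cap, differed the most, with 173 and 215 fpm in wild type against 295 and 284 fpm in the mutant (log2 fold change 0.58, limma adjusted *P*=0.0536). *ubql-1*, a shuttle factor that carries ubiquitinated proteins, differed the least (log2 fold change 0.08, limma adjusted *P*=0.619). *rad-23*, another shuttle factor, lies 394 bp from *rpn-12* on the opposite strand. It had 159 and 188 fpm against 233 and 251 fpm (log2 fold change 0.48, limma adjusted *P*=0.0639).

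Ubiquitin genes did not move together. The polyubiquitin gene *ubq-1* had 1741 and 2005 fpm in wild type against 2431 and 2377 fpm in the mutant (log2 fold change 0.36, limma adjusted *P*=0.102), and *uba-1*, the ubiquitin-activating enzyme, had a log2 fold change of 0.31. *ubl-1*, which encodes a ubiquitin-like protein fused to a ribosomal protein, was at −0.25 (limma adjusted *P*=0.164). *ubq-2*, the remaining gene, had 348 and 334 fpm in wild type against 312 and 307 fpm in the mutant (log2 fold change −0.14, limma adjusted *P*=0.407). None of the 4 genes in this list was called, against 4.23% of all genes tested called higher and 3.94% lower.

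SKN-1 is the transcription factor that raises proteasome subunit genes in *C. elegans* when proteasome function is impaired. *skn-1* itself had 139 and 142.2 fpm in wild type against 138 and 136 fpm in the mutant (log2 fold change −0.04, standard error 0.10, limma adjusted *P*=0.835). Of the 5 genes in this list, 0 were called, against 4.23% of all genes tested called higher and 3.94% lower. *sel-1*, an ERAD component, differed the most (log2 fold change 0.31, limma adjusted *P*=0.116). *png-1*, which encodes the glycanase that processes SKN-1, was at −0.05. RNA levels do not show the activity of SKN-1.

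Other large complexes gave different medians. The COP9 signalosome is built from subunits related to those of the proteasome lid. All 6 of its genes had a log2 fold change above 0, 3 with an unadjusted *P*-value below 0.05, with 0 called and a median of 0.28 (from 0.21 for *csn-4* to 0.36 for *csn-2*). These shares were 49.7% and 17.6% of all genes tested, with 4.23% called higher. For the 1404 genes in the level range of the subunits they were 73.1% and 34.2%, with 5.48% called higher and a median of 0.19. The 8 CCT chaperonin genes and 74 tested ribosomal protein genes were added for comparison after the values were seen. Their medians were −0.03 and −0.15, with 3 of 8 and 6 of 74 above 0. No test was run of the difference between these sets and the proteasome.

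**Figure D5:**
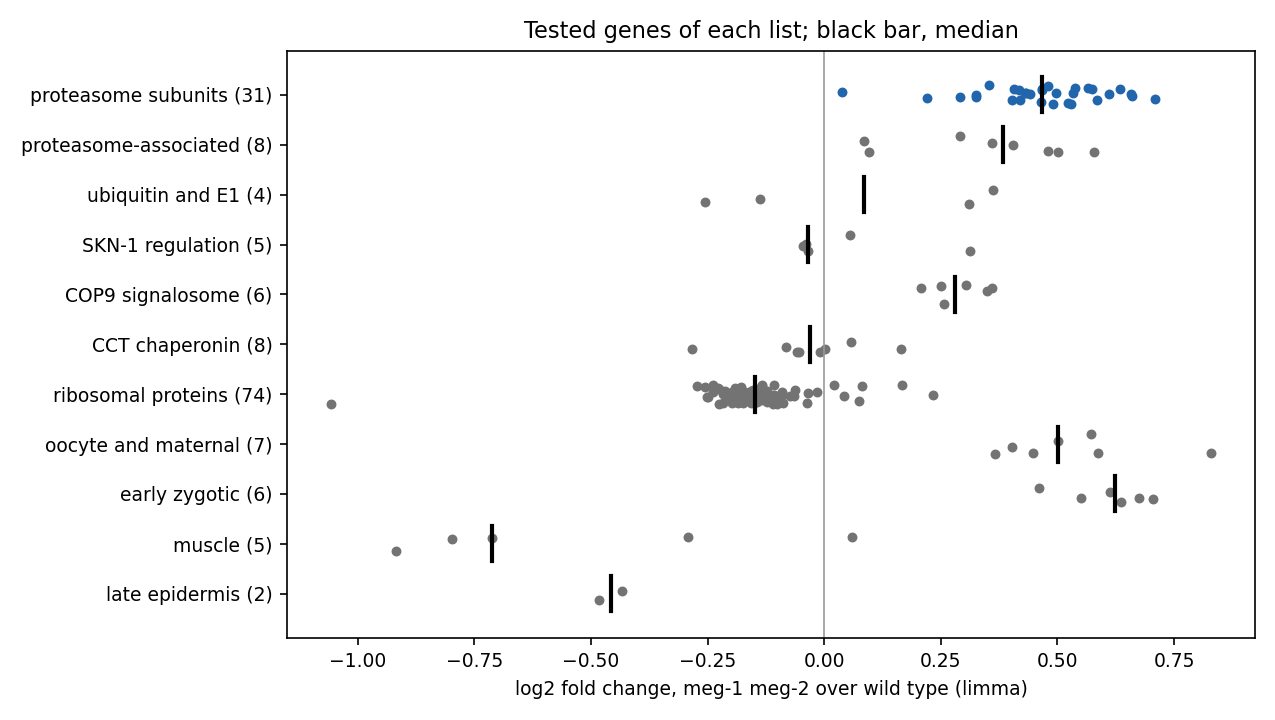
Log2 fold change (limma) of the tested genes in each list, 1 dot per gene, with the number of tested genes in brackets and the median as a black bar. Proteasome subunits have a median of 0.47, between proteasome-associated genes at 0.38 and oocyte and maternal transcripts at 0.50. The COP9 signalosome is at 0.28, early zygotic transcripts at 0.62 and muscle transcripts at −0.71.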

How the data were processed

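The authors removed rRNA, prepared stranded libraries, used HISAT2 to align reads to ce10, HTSeq-count to obtain reads per gene, and DESeq2 for the comparison. The signal deposited for each genotype is the mean over its 2 libraries of DESeq2's robust fpm. The gene length that the authors deposited served to express it per kb. The deposited fold changes, adjusted *P*-values and FPKM (per bp) were not used.

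Whole reads were recovered as the only pair of whole numbers that gives each mean, for 100% of wild-type genes and 42047 of 42048 *meg-1 meg-2* genes, the exception being *rrn-2.1*, where the definition of the size factors chose the pair. Genes with a mean of at least 2.18 fpm per kb, the limit stated for the study, were tested (13060). The design had assumed values per library as FPKM; the same test was run on fpm per kb with limma 3.58.1 (lmFit, eBayes with trend, no block) in R 4.3.3. edgeR 4.0.16 and DESeq2 1.42.0 on the recovered counts were alternatives, with other pseudocounts, filters, scalings and left-out libraries. Scripts were tested on simulated data. A count of 0 allows 3 reads, or 0.114 to 0.149 fpm, for counting error only.

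Any subunit may be named; values per library are given at least for called subunits, for paralogs and for the extremes of level and change in each class, and in the related lists the extremes and called genes are named. Members and lists were chosen with earlier results of these data known. Coordinates are from WBcel235, which matched 41759 of 42048 identifiers; no coordinate was converted. No sequence was used here.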

Additional observations from a re-analysis of the deposited data

How the results depend on the processing

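The direction of the subunits as a group was kept, and the number called was not. Under 18 alternative fits, 30 or 31 of the 31 tested subunits stayed above 0 (31 of 32 with no filter), and 0 were called lower. Of 31 subunits, 6 were called higher in the test reported, 3 with edgeR on the recovered reads, 2 with a pseudocount of 1 times the median, 0 after quantile normalization and 28 with no minimum fold change. Alternatives chosen after seeing the data gave 2 with the length trend removed (505 of all genes). They gave 0 with cyclic loess (481 of all genes) and 3 with scaling by total reads (378 of all genes). Leaving out 1 library gave from 0 (without wild-type library A) to 16 (without wild-type library B). The median log2 fold change was 0.47 as reported, 0.32 after quantile normalization, 0.30 after cyclic loess, and from 0.36 (without wild-type library A) to 0.62 (without wild-type library B) when 1 library was left out. Of the 6 called subunits, all stayed above 0 in 18 of 18 fits, and *pas-5* was called in 15, *rpn-12* and *pbs-5* in 14, *pas-6* in 11, *pbs-3* in 10 and *rpt-2* in 9. *rpt-6* changed sign, at −0.0295 with edgeR, −0.11 after quantile normalization, −0.13 after cyclic loess and −0.0275 with scaling by total reads, and ran from −0.0383 (without wild-type library A) to 0.12 (without wild-type library B). The median of the ubiquitin genes turned to −0.0646 after cyclic loess. That of the SKN-1 list turned to 0.0096 with a filter at the median level, where the median of all genes tested was 0.13, and ran from −0.0513 (without wild-type library A) to 0.0411 (without wild-type library B) when 1 library was left out. The cause was not tested. With 1 library left out, the lone library is assumed to vary like the others.

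No paired analysis was possible because the recovered libraries carry no replicate number. With 2 libraries per genotype, the adjusted *P*-values rest on a spread between these cultures that is shared across genes. The age of the embryos and the genotype cannot be told apart.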
